A study of Mus musculus with 8 samples.

Results

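Mitosis and cytokinesis genes were followed here in the embryonic mouse cortex, as a set of 40 genes named for their roles in spindle assembly, chromosome attachment, checkpoint signalling and division of the cell body. All 40 were found in both count tables, which list 23420 genes at E11.5 and 78298 genes at E12.5, and all 40 passed the filter on low counts at each stage. The RNA came from whole cortices of Mboat7+/- and Mboat7-/- embryos at 2 embryonic stages, E11.5 and E12.5 (days of gestation), and the 8 cortices form 4 groups of 2 by stage and genotype. Mboat7 encodes LPLAT11, the acyltransferase that places arachidonic acid in phosphatidylinositol. The knockout is global, in mice of the C57BL/6N background, and the heterozygous embryos, which carry 1 deleted allele, served as the controls. No wild-type cortices were used here. The libraries of the stages were sequenced by different providers and counted with different annotations, so stage and provider cannot be told apart.

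In cells entering mitosis, cyclin-dependent kinase 1 bound to a B-type cyclin starts chromosome condensation and spindle formation. Kinetochores then attach chromosomes to microtubules, and the spindle checkpoint holds back the anaphase-promoting complex (APC/C) until attachment is complete. Once the APC/C acts, chromosomes part, and a central spindle and contractile ring split the cell. In the early cortex the dividing cells are largely radial glial cells, which undergo mitosis at the ventricular surface. Most of these genes are transcribed mainly in the second part of the cell cycle, through promoter elements named the cell cycle genes homology region (CHR), bound by the DREAM and B-Myb complexes, and CCAAT boxes, bound by NF-Y. The comparison asks whether transcripts of the mitotic machinery differed between genotypes at stages where mitotic cells had been stained in the same mouse line.

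The promoters are shown because they carry a feature that was not used to choose the genes. RefSeq windows on GRCm38.p6, from 250 bases before to 50 bases after the start, were matched for 34 of the 40 genes. Windows for Ccna2, Cdc25c, Aurkb, Incenp, Tpx2 and Kif20a were not matched. The CHR core was searched as TTTGAA and the CCAAT box as CCAAT, each on both strands. Neither word contains the other, though neighbouring matches can share an end base. The CHR core was present for 26 of the 34 genes (76.5%), against 20.2% of all 27025 genes with a window. CCAAT was present for 26 of the 34 genes (76.5%), against 41.1% of all genes, and both words for 64.7% against 7.97%. Within 50 bases of the start, the CHR core was found for 23 genes (67.6%), against 5.72% of all genes. Among 62 other mitosis genes with a window the CHR core was present for 50%, and among 24 S-phase genes for 3. A match of letters is a description and not a shown binding site.

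The 130 bases before the RefSeq start are given for 6 genes whose levels are described in the following paragraphs. CHR cores and CCAAT words of either strand are in capitals. For Top2a the start used lies within the RefSeq gene, and for the others at its first base. The first 5 hold a CHR core close to the start, and Cenpe, the gene with the largest difference at E11.5, holds only a CCAAT word.
Cdk1 (chr10:69352913-69353042, minus strand): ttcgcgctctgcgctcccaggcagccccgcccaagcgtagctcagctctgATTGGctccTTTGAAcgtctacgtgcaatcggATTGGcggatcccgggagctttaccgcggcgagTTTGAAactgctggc
Cdc20 (chr4:118437344-118437473, minus strand): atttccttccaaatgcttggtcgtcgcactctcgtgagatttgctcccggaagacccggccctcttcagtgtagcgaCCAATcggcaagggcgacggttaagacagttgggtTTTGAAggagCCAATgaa
Ube2c (chr2:164769799-164769928, plus strand): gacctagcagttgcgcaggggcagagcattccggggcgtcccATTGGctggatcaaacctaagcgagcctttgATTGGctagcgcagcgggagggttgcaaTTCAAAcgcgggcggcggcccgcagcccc
Kif11 (chr19:37376252-37376381, plus strand): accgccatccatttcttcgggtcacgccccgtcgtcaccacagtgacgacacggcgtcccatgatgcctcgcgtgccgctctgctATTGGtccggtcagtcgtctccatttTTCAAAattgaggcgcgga
Top2a (chr11:99024190-99024319, minus strand): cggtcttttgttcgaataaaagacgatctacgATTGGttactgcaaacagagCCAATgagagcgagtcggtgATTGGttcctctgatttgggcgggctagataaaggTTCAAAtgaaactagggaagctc
Cenpe (chr3:135212433-135212562, plus strand): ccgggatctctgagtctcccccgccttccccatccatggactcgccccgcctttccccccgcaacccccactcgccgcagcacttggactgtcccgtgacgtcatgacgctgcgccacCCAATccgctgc
In these stretches Cdk1 held 2 CHR cores and 2 CCAAT words, and Top2a held 1 CHR core and 3 CCAAT words. The 26 genes with a CHR core had a median log2 difference between genotypes of 0.014 at E11.5, and the 8 without one had -0.014. At E12.5 these medians were -0.042 and -0.060.

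**Figure D1:**
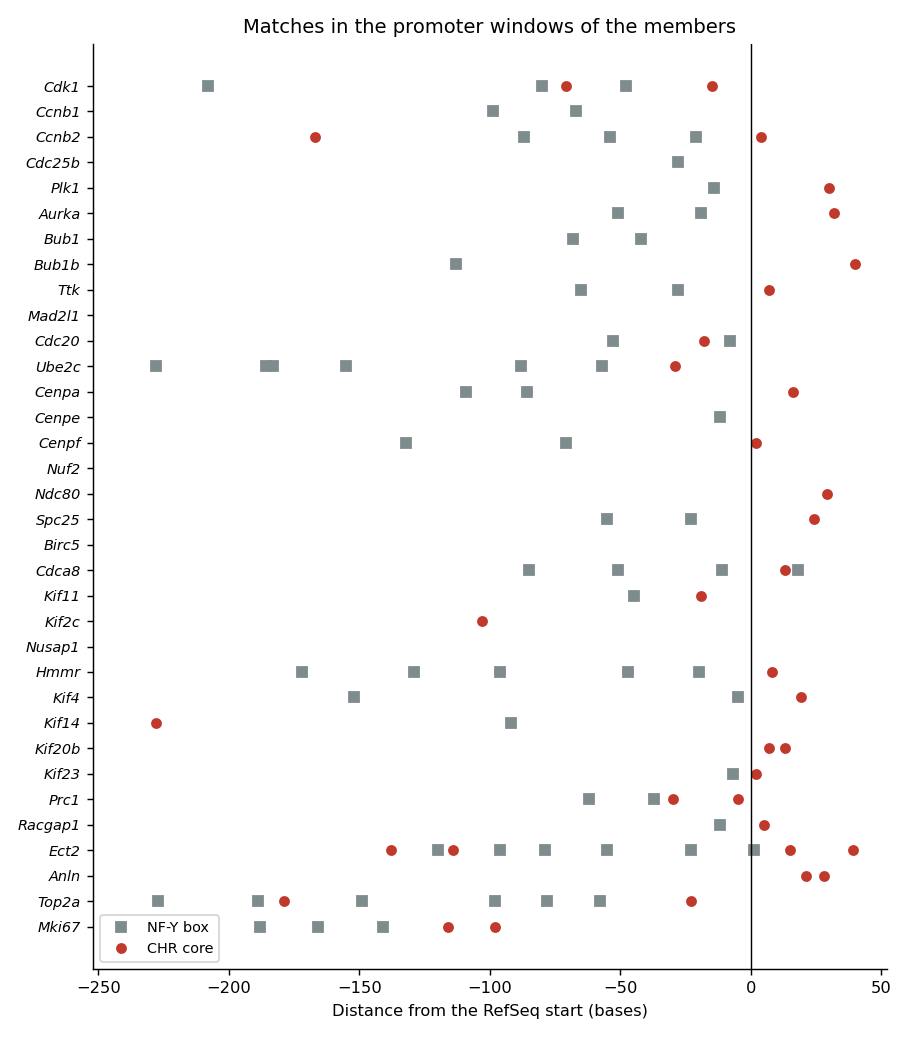
Matches in the promoter windows of the 34 genes with a window. The horizontal axis is the distance from the RefSeq start in bases, each row is a gene, circles are CHR cores and squares CCAAT words (the NF-Y box) of either strand, and a gene with more than 1 window has the matches of each; 23 genes have a CHR core within 50 bases of the start.

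Total counts ranged from 20799311 to 28189771 per cortex, and 3 counts, taken as the floor, corresponded to between 0.106 and 0.144 CPM (counts per 1000000 on normalized library sizes; floors cover counting error only). Mboat7 itself was at 32.3 and 33.1 CPM in the Mboat7+/- cortices and at 39.0 and 34.8 CPM in the cortices labelled Mboat7-/- at E11.5. At E12.5 it was at 35.5 and 36.2 CPM and at 31.7 and 32.2 CPM. The Mboat7 count per gene was therefore not lower in the Mboat7-/- cortices at E11.5, the part of the transcript removed was not examined, and the direction of every difference rests on the labels. Xist, the RNA of the inactive X chromosome, was at 825.5 CPM in Mboat7+/- replicate 1 at E11.5 and at most at 0.0884 CPM in every other cortex, and of the genes studied Kif4 is X-linked. Cell type was not resolved in these whole cortices. A difference in the number of mitotic cells therefore cannot be told from a difference in RNA per mitotic cell. By staining, the paper reported more radial glial cells in mitosis in Mboat7-/- cortices, at stages that include E12.5.

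All 40 genes were well measured, with at least 1059 reads in any cortex at E11.5 and at least 539 at E12.5. Their median level was 134 CPM at E11.5 and 99.7 CPM at E12.5. Per kilobase of exon, Cdc20 was the most abundant at both stages, at 129 CPM per kb at E11.5 and 108 CPM per kb at E12.5, and Kif14 the least, at 5.12 and 3.70 CPM per kb. The mean level was lower at E12.5 than at E11.5 for 35 of the 40 genes, the exceptions being Cdk1, Ccnb1, Ccna2, Mad2l1 and Ect2. The stages differ in provider and annotation, and the levels were not corrected for this. A change with development therefore cannot be told from a difference between providers, and the share of all genes lower at E12.5 was not counted. Together the 40 genes made up 7336 and 7212 CPM in the Mboat7+/- cortices and 7426 and 7335 CPM in the Mboat7-/- cortices at E11.5. At E12.5 the sums were 5428 and 5517 CPM and 5448 and 5105 CPM. The genotypes thus overlapped in the summed level at both stages.

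None of the 40 genes passed an FDR under 0.05 between genotypes at E11.5, where 0 of 14935 genes passed (0%), nor at E12.5, where 3 of 16326 genes passed (0.0184%). At E11.5, 20 genes were higher and 20 lower in Mboat7-/- cortices, with a median log2 fold change of 0.00033 against -0.0055 over all genes tested. The differences ranged from -0.21 (Ube2c) to 0.35 (Cenpe), and the 95% intervals of all 40 lay between -0.40 and 0.505. At E12.5, 13 were higher and 27 lower, with a median of -0.066 against 0.0049 over all genes. They ranged from -0.22 (Cdca8) to 0.20 (Kif23), and their intervals lay between -0.43 and 0.44. At an unadjusted p under 0.05, 4 genes were higher at E11.5 (Cenpe, Kif11, Kif20b, Top2a), beside 8.03% of all genes, and 5 were lower (Cdk1, Cdc25c, Ube2c, Cdca8, Racgap1), beside 6.07%. At E12.5 no member had an unadjusted p under 0.05 in the edgeR fit reported here, beside 2.85% of all genes higher and 1.38% lower. Cdca8 alone was lower at that p by DESeq2, and by edgeR with RLE or upper-quartile scaling, with at least 10 counts in every cortex or with the length trend removed. Without Mboat7-/- replicate 1 the E12.5 median log2 fold change of the 40 genes was -0.119, and without Mboat7+/- replicate 1 it was -0.089. The values in the Mboat7-/- cortices lay above both Mboat7+/- cortices for 14 genes and below both for 12 at E11.5, beside 23.1% and 23.3% of all genes. At E12.5 this held for 2 genes (Ndc80, Kif23) and 5 genes (Bub1b, Mad2l1, Ube2c, Incenp, Cdca8), beside 16.9% and 15.2%.

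**Figure D2:**
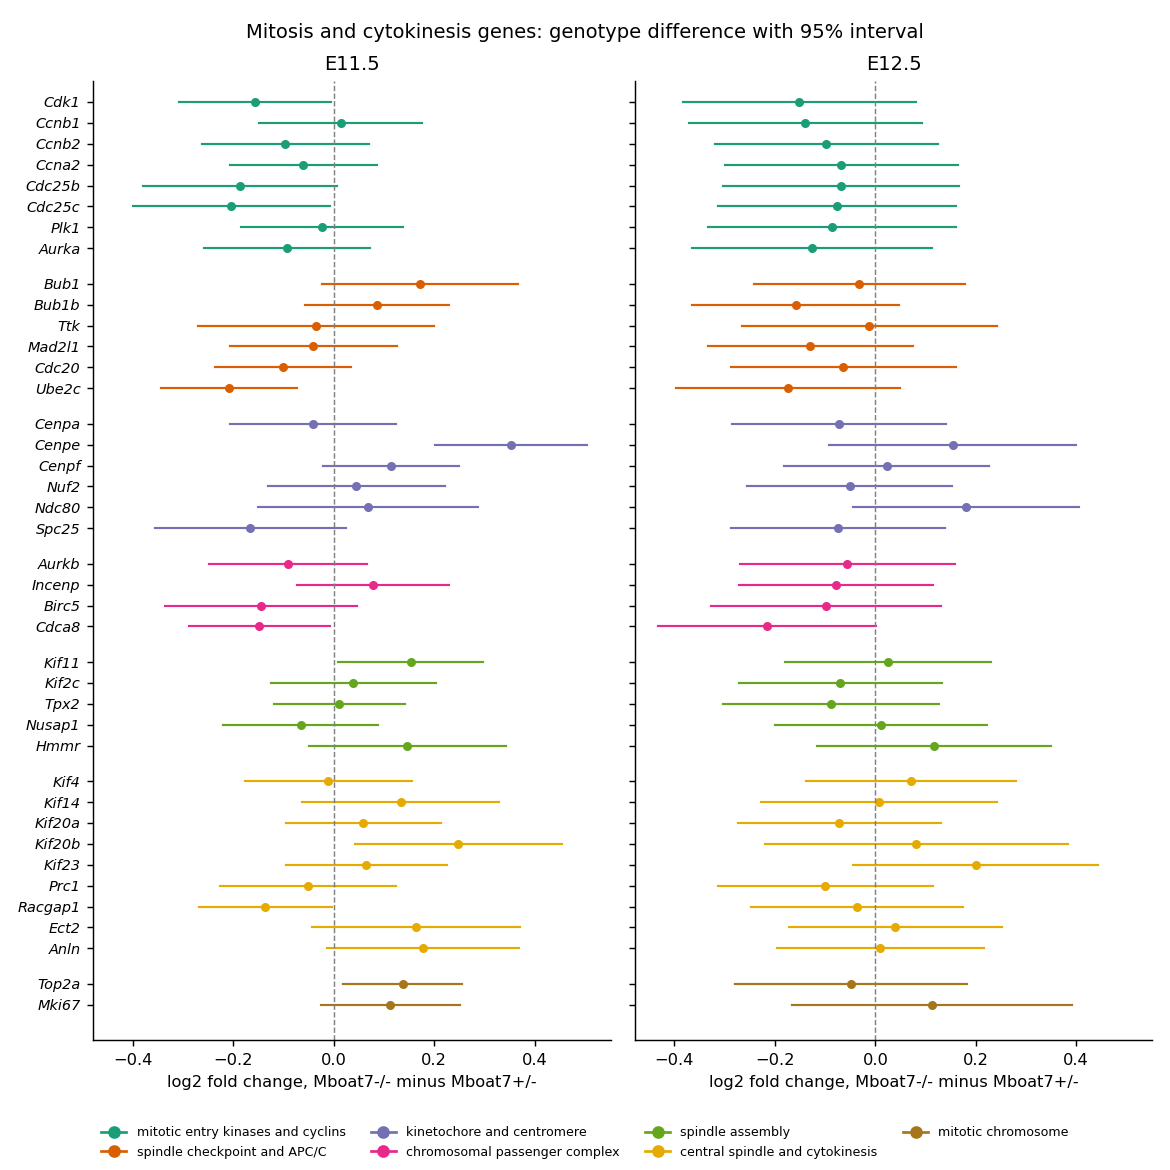
Genotype difference of the 40 genes at each stage. Points are log2 fold changes from edgeR (Mboat7-/- minus Mboat7+/-), lines their 95% intervals, colours the functional groups and the dashed line no difference; 2 cortices per genotype. Cenpe at E11.5, at 0.35, stands farthest from 0, and at E12.5 every interval includes 0.

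The kinases and cyclins of mitotic entry were lower in Mboat7-/- cortices for 7 of 8 genes at E11.5, with a median log2 fold change of -0.094, and for 8 of 8 at E12.5, with a median of -0.092. With the length trend removed, 5 of 8 were lower at E11.5, with a median of -0.033. None passed the FDR threshold. Cdk1, the kinase that drives entry, was at 152 and 148 CPM in the Mboat7+/- cortices at E11.5 and at 132 and 137 CPM in the Mboat7-/- cortices. Both Mboat7-/- values lay below both controls, and the log2 fold change was -0.16 ± 0.066 (SE, n = 2 per genotype; edgeR adjusted p = 0.340). At E12.5 Cdk1 was at 142 and 163 CPM and at 147 and 128 CPM, which overlap, with a log2 fold change of -0.15 ± 0.11 (edgeR adjusted p = 0.954). Ccnb1, the B-type cyclin that activates Cdk1, was at 203 and 219.9 CPM and at 222 and 205 CPM at E11.5. Its levels at E12.5 were 235 and 259.8 CPM in controls and 240.3 and 209 CPM in Mboat7-/- cortices. The genotypes of Ccnb1 overlapped at both stages. Pseudogene copies of Ccnb1, Ccnb2 and Kif4 are annotated, how reads shared with them were counted is not given in the sources used here, and the values of these 3 genes are uncertain to that extent. Aurka, the kinase that matures centrosomes, was at 111 and 105 CPM and at 101 and 101 CPM at E11.5. Its E12.5 values were 85.7 and 97.3 CPM and 90.5 and 77.1 CPM. Aurka did not overlap at E11.5, with a log2 fold change of -0.092 ± 0.073, and overlapped at E12.5, at -0.13 ± 0.11. Plk1, a kinase that acts from entry to cytokinesis, was at 182 and 200.3 CPM and at 193 and 184 CPM at E11.5. In the E12.5 cortices it was at 141 and 159 CPM and at 155 and 128 CPM, so that its genotypes overlapped at both stages. Ccna2, Ccnb2, Cdc25b and Cdc25c, the other cyclins and the phosphatases that activate Cdk1, had log2 fold changes from -0.20 (Cdc25c) to -0.060 (Ccna2) at E11.5 and from -0.098 (Ccnb2) to -0.068 (Ccna2) at E12.5.

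The checkpoint and APC/C genes split at E11.5, with 2 of 6 higher, and were lower for 6 of 6 at E12.5, where the median was -0.097. Ube2c, the E2 enzyme with which the APC/C builds ubiquitin chains, was at 240.1 and 237 CPM in the Mboat7+/- cortices and at 206 and 207 CPM in the Mboat7-/- cortices at E11.5. At E12.5 it was at 203 and 221 CPM and at 200 and 176 CPM. Ube2c did not overlap at either stage, with log2 fold changes of -0.21 ± 0.060 at E11.5 (edgeR adjusted p = 0.210) and -0.17 ± 0.10 at E12.5 (edgeR adjusted p = 0.954). Cdc20, the APC/C activator that the checkpoint restrains, was at 246 and 252 CPM and at 233 and 232 CPM at E11.5, without overlap, at a log2 fold change of -0.10 ± 0.059. At E12.5 Cdc20 overlapped, with 196 and 218 CPM and 209.8 and 186 CPM. Bub1b, which encodes the checkpoint protein BubR1, was at 216 and 220 CPM in controls and at 238 and 225 CPM in Mboat7-/- cortices at E11.5. Its E12.5 values were 180.2 and 188 CPM and 173 and 157 CPM. Its Mboat7-/- cortices were thus above both controls at E11.5, at 0.086 ± 0.063, and below both at E12.5, at -0.16 ± 0.094. Bub1, a checkpoint kinase of the kinetochore, was at 123 and 112 CPM and at 140.1 and 124 CPM at E11.5, just short of overlap. At E12.5 Bub1 was at 84.1 and 77.5 CPM and at 82.2 and 75.9 CPM, which overlap. Ttk, the kinase Mps1 that starts checkpoint signalling, was at 48.9 and 55.5 CPM and at 53.8 and 48.2 CPM at E11.5, which overlap. In the E12.5 cortices it was at 42.0 and 35.2 CPM and at 36.8 and 39.7 CPM, again overlapping. Mad2l1, the checkpoint effector Mad2, had log2 fold changes of -0.041 at E11.5 and -0.13 at E12.5.

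Kinetochore and centromere genes were mixed, with 4 of 6 higher at E11.5 and 3 of 6 higher at E12.5. Cenpe, a kinesin that carries chromosomes to the spindle equator, was at 155 and 148 CPM in the Mboat7+/- cortices and at 199 and 188 CPM in the Mboat7-/- cortices at E11.5. Both Mboat7-/- values lay above both controls, with a log2 fold change of 0.35 ± 0.067 (edgeR adjusted p = 0.174). In the fit with a replicate block, the edgeR adjusted p of Cenpe at E11.5 was 0.0106, and it passed the threshold. It also passed with DESeq2 (adjusted p = 0.0104) and without Mboat7-/- replicate 2 (adjusted p = 0.00341), and adjusted p over 13 alternatives reached up to 0.821. At E12.5 Cenpe was at 90.4 and 72.4 CPM and at 89.3 and 91.8 CPM, which overlap, with a log2 fold change of 0.15 ± 0.11 that ranged from 0.001 to 0.322 as single cortices were left out. Cenpf, a large protein of the outer kinetochore, was at 220.2 and 222 CPM and at 239.8 and 239 CPM at E11.5, without overlap, at 0.11 ± 0.059. At E12.5 it was at 155 and 141 CPM and at 149 and 152 CPM, which overlap. Ndc80, the main microtubule-binding subunit, was at 53.1 and 61.5 CPM and at 60.8 and 59.6 CPM at E11.5. Its E12.5 values were 35.0 and 37.9 CPM and 41.3 and 41.4 CPM, above both controls, with a log2 fold change of 0.18 ± 0.10 (edgeR adjusted p = 0.954). Its partner subunits in the same complex had E12.5 log2 fold changes of -0.051 (Nuf2) and -0.074 (Spc25), and the centromeric histone Cenpa of -0.072.

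The chromosomal passenger complex corrects faulty attachments and later marks the central spindle. Its genes were lower for 3 of 4 at E11.5, with Incenp higher at 0.078, and for 4 of 4 at E12.5. Cdca8, which encodes the subunit borealin, was at 219 and 211 CPM in the Mboat7+/- cortices and at 194 and 194 CPM in the Mboat7-/- cortices at E11.5. In the E12.5 cortices it was at 157 and 169 CPM and at 149 and 132 CPM. Cdca8 did not overlap at either stage, with log2 fold changes of -0.15 ± 0.062 at E11.5 (edgeR adjusted p = 0.329) and -0.22 ± 0.098 at E12.5 (edgeR adjusted p = 0.954). Aurkb, the kinase of the complex, was at 126 and 121 CPM and at 115 and 117 CPM at E11.5, without overlap, at -0.091 ± 0.069. At E12.5 it was at 94.9 and 105 CPM and at 100.4 and 92 CPM, which overlap, at -0.056 ± 0.097. Birc5, which encodes the subunit survivin, overlapped at both stages, at 152 and 135 CPM and at 136 and 123 CPM at E11.5. Its E12.5 values were 71.3 and 76.4 CPM and 74.3 and 63.7 CPM. Incenp, the scaffold, was at 139 and 138 CPM in controls and at 130.4 and 131 CPM in Mboat7-/- cortices at E12.5, without overlap, with a log2 fold change of -0.079 ± 0.088.

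Of the spindle assembly genes, 4 of 5 were higher at E11.5 and 3 of 5 at E12.5. Kif11, the kinesin Eg5 that pushes the spindle poles apart, was at 190 and 201 CPM in the Mboat7+/- cortices and at 215 and 219.5 CPM in the Mboat7-/- cortices at E11.5. Its genotypes did not overlap, with a log2 fold change of 0.15 ± 0.064 (edgeR adjusted p = 0.329). At E12.5 Kif11 overlapped, at 148 and 138 CPM and at 139.9 and 150.5 CPM. Tpx2, which activates Aurora A on the spindle, was at 354 and 342 CPM and at 348 and 354 CPM at E11.5. At E12.5 Tpx2 was at 255 and 259.6 CPM and at 256 and 228 CPM, overlapping at both stages. Kif2c, Nusap1 and Hmmr, a microtubule depolymerase and a pair of spindle-associated proteins, had log2 fold changes from -0.066 (Nusap1) to 0.15 (Hmmr) at E11.5 and from -0.070 (Kif2c) to 0.12 (Hmmr) at E12.5.

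Central spindle and cytokinesis genes were higher for 6 of 9 at each stage, with medians of 0.064 at E11.5 and 0.0093 at E12.5. With the length trend removed the counts were 5 of 9 at E11.5 and 4 of 9 at E12.5. Kif20b, a kinesin of late cytokinesis, was at 57.5 and 58.4 CPM in the Mboat7+/- cortices and at 72.9 and 64.5 CPM in the Mboat7-/- cortices at E11.5. These did not overlap, with a log2 fold change of 0.25 ± 0.091 (edgeR adjusted p = 0.283). At E12.5 Kif20b overlapped, at 32.5 and 24.97 CPM and at 28.9 and 32.0 CPM. Kif23, the kinesin of the centralspindlin complex, was at 102 and 106 CPM and at 110 and 108 CPM at E11.5. In the E12.5 cortices it was at 50.1 and 45.5 CPM and at 50.4 and 59.4 CPM. Kif23 was the only one of the 40 genes above both controls at each stage, with log2 fold changes of 0.064 ± 0.071 and 0.20 ± 0.11 (edgeR adjusted p = 0.718 and 0.954), and at E12.5 its nearest values differed by under 1 CPM. Racgap1, the other subunit of centralspindlin, had log2 fold changes of -0.14 and -0.036. Kif20a, which moves the passenger complex to the central spindle, was at 132 and 126 CPM and at 136 and 133 CPM at E11.5. At E12.5 it was at 118 and 124 CPM and at 119 and 111 CPM, which overlap. Prc1, the microtubule bundler of the central spindle, overlapped at both stages, at 252 and 236 CPM and at 220.2 and 250.5 CPM at E11.5. At E12.5 Prc1 was at 219 and 229 CPM and at 221 and 197 CPM. Anln, the contractile ring scaffold anillin, was at 54.4 and 55.04 CPM and at 63.3 and 60.5 CPM at E11.5, without overlap, at 0.18 ± 0.084. At E12.5 Anln was at 58.2 and 55.8 CPM and at 58.2 and 56.6 CPM, which overlap. Kif4, Kif14 and Ect2, a pair of kinesins and the activator of the contractile ring, ranged from -0.011 (Kif4) to 0.16 (Ect2) at E11.5 and from 0.0074 (Kif14) to 0.070 (Kif4) at E12.5.

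The pair of genes for mitotic chromosome structure were both higher at E11.5, with log2 fold changes of 0.11 and 0.14, and split at E12.5. Top2a, topoisomerase II alpha, which untangles sister chromatids, was at 805 and 824 CPM in the Mboat7+/- cortices and at 901.5 and 889.9 CPM in the Mboat7-/- cortices at E11.5. The genotypes did not overlap, with a log2 fold change of 0.14 ± 0.052 (edgeR adjusted p = 0.296). At E12.5 Top2a overlapped, at 544 and 519.6 CPM and at 536 and 493 CPM, with a log2 fold change of -0.048 ± 0.10. Mki67, which coats mitotic chromosomes and is used as a label of cycling cells, was at 735 and 669 CPM and at 761 and 756 CPM at E11.5. Its level at E12.5 was 318 and 267 CPM in controls and 282 and 351 CPM in Mboat7-/- cortices. Mki67 did not overlap at E11.5, at 0.11 ± 0.061, and overlapped at E12.5, at 0.11 ± 0.13.

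**Figure D3:**
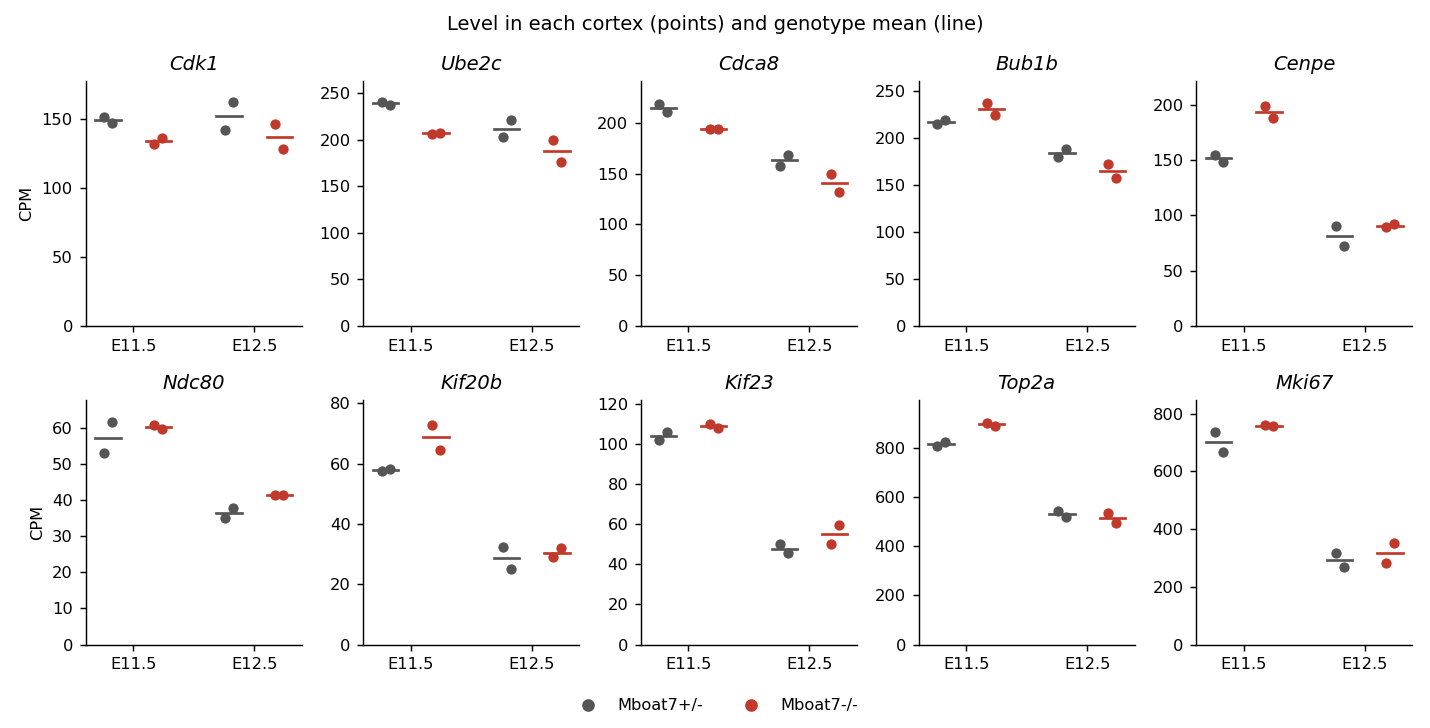
CPM of 10 of the genes in each cortex. Points are single cortices, lines genotype means (2 cortices each), grey Mboat7+/- and red Mboat7-/-; each vertical axis starts at 0. Ube2c and Cdca8 are below both controls at both stages, while Cenpe, Kif20b and Top2a are above them at E11.5 only.

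Over both stages together, none of the 40 genes passed an FDR under 0.05 (0% of 15027 genes). At an unadjusted p under 0.05, Cenpe was higher, at 0.26 ± 0.074, beside 7.41% of all genes. Ube2c (-0.19 ± 0.058), Cdca8 (-0.18 ± 0.058) and Cdk1 (-0.15 ± 0.062) were lower, beside 4.98%. Their adjusted p by edgeR were 0.309 for Cenpe, Ube2c and Cdca8 and 0.364 for Cdk1, and each kept its direction in all 17 alternatives. In all, 18 genes were lower at both stages, 11 were higher at both, and 9 were higher at E11.5 and lower at E12.5, among them Bub1, Bub1b and Top2a. The genotype difference itself did not differ between stages for any of the 40 at an FDR under 0.05 (0% of 15027 genes passed). At an unadjusted p under 0.05, Bub1b was the only member, with a difference of -0.25 ± 0.11 on the log2 scale (E12.5 minus E11.5; edgeR adjusted p = 0.887), beside 2.82% of all genes with a lower and 2.63% with a higher difference at E12.5.

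The differences were ordered by the length of the transcript. Across the 40 genes, the log2 fold change and the union exon length had a Spearman correlation of 0.588 at E11.5 and 0.521 at E12.5, and across all genes with a length it was 0.332 over 14817 genes and 0.205 over 15500 genes. These are correlations across genes that share their libraries, so they are given without a p. Of the 20 genes with up to 4919 bases of exon, 7 were higher at E11.5 (median -0.063) and 1 at E12.5 (median -0.075). Of the 20 with at least 4934 bases, 13 were higher at E11.5 (median 0.090) and 12 at E12.5 (median 0.016). Cenpe (8620 bases), Kif20b (6957 bases) and Top2a (9013 bases) belong to the long group, and Ube2c (2600 bases) and Cdc20 (1868 bases) to the short one. Cdk1 (4934 bases), Cdca8 (5177 bases) and Racgap1 (7079 bases) are in the long group too, but were lower at both stages. At E11.5 these genes stayed below 0 in all 13 alternatives. Once the trend of each library with length was removed, the E11.5 log2 fold changes were 0.25 for Cenpe, 0.18 for Kif20b, 0.031 for Top2a and -0.007 for Cdc20, and Ube2c stayed below 0 at both stages. Whether RNA quality had a part in this relation to length was not tested.

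**Figure D4:**
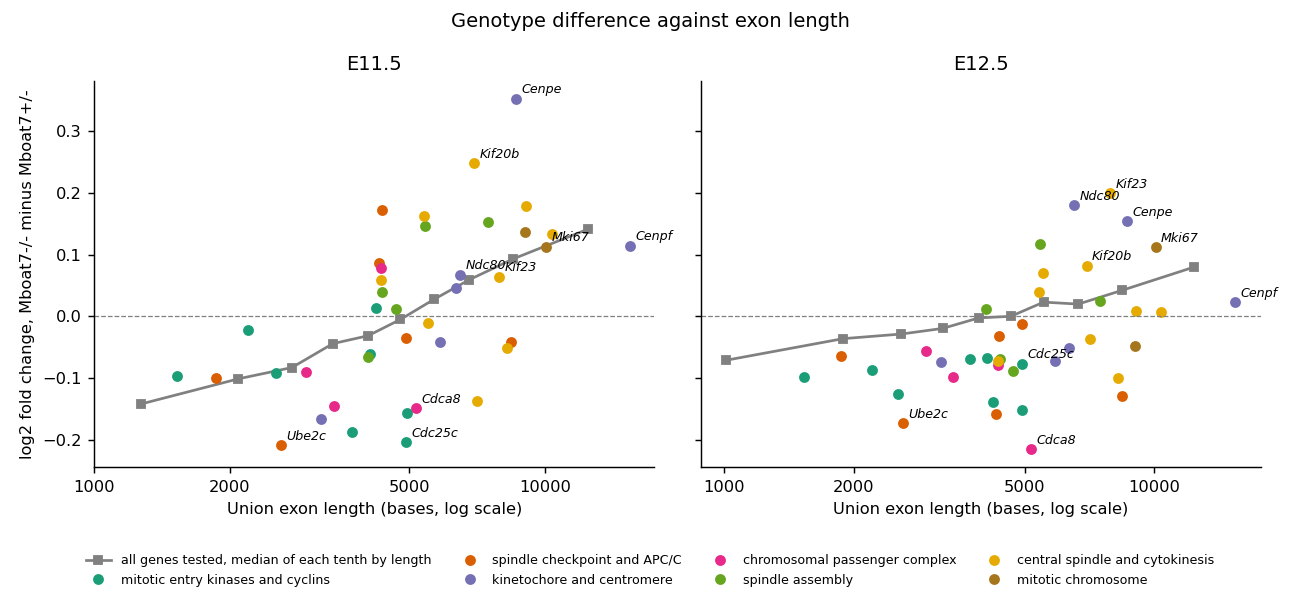
Genotype difference (log2 fold change, Mboat7-/- minus Mboat7+/-) against union exon length in bases on a log axis. Coloured points are the 40 genes by functional group, and the grey line joins the medians of all genes tested, in 10 bins of equal size by length; the 40 genes lie higher with length at both stages, with Spearman correlations of 0.588 and 0.521.

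At E12.5, of the 40 genes, 24 had their lowest value in Mboat7-/- replicate 2 and 23 their highest in Mboat7+/- replicate 2. Summed over the 8 entry genes, the Mboat7+/- cortices were at 1094 and 1202 CPM and the Mboat7-/- cortices at 1140 and 996 CPM, which overlap. The sums of the 6 checkpoint and APC/C genes were 808 and 847 CPM against 802 and 727 CPM, and those of the 4 passenger genes 462 and 488 CPM against 454 and 418 CPM. In both of these groups the Mboat7-/- cortices lay below both controls, but just short of overlap. The nearest sums were 802 against 808 CPM for the checkpoint and APC/C genes and 454 against 462 CPM for the passenger genes. Without Mboat7-/- replicate 2, the median of the 40 genes at E12.5 was 0.0040 and 21 were higher, and 6 of the 8 entry genes stayed lower. Without Mboat7+/- replicate 2 the median was -0.030, and 4 of the 8 entry genes were lower. Leaving out Mboat7-/- replicate 2 left 4 of 6 checkpoint genes lower (median -0.067) and 2 of 4 passenger genes (median -0.037), and all 6 kinetochore genes were then higher. Checkpoint genes were lower for 4 of 6 without Mboat7+/- replicate 1, and for 5 of 6 without Mboat7+/- replicate 2 (median -0.10) or without Mboat7-/- replicate 1. Passenger genes were lower for 3 of 4 without Mboat7+/- replicate 2. The labels give the replicate number as a batch too, and within batch 1 the median log2 ratio of the 40 genes was 0.015 at E12.5, while within batch 2 it was -0.144. At E11.5 these were 0.050 and -0.017. The same direction in both batches was seen for 15 genes higher and 14 lower at E11.5, and for 3 higher and 8 lower at E12.5. The share of all genes with the same direction in both batches was not counted, so these counts have no background beside them.

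**Figure D5:**
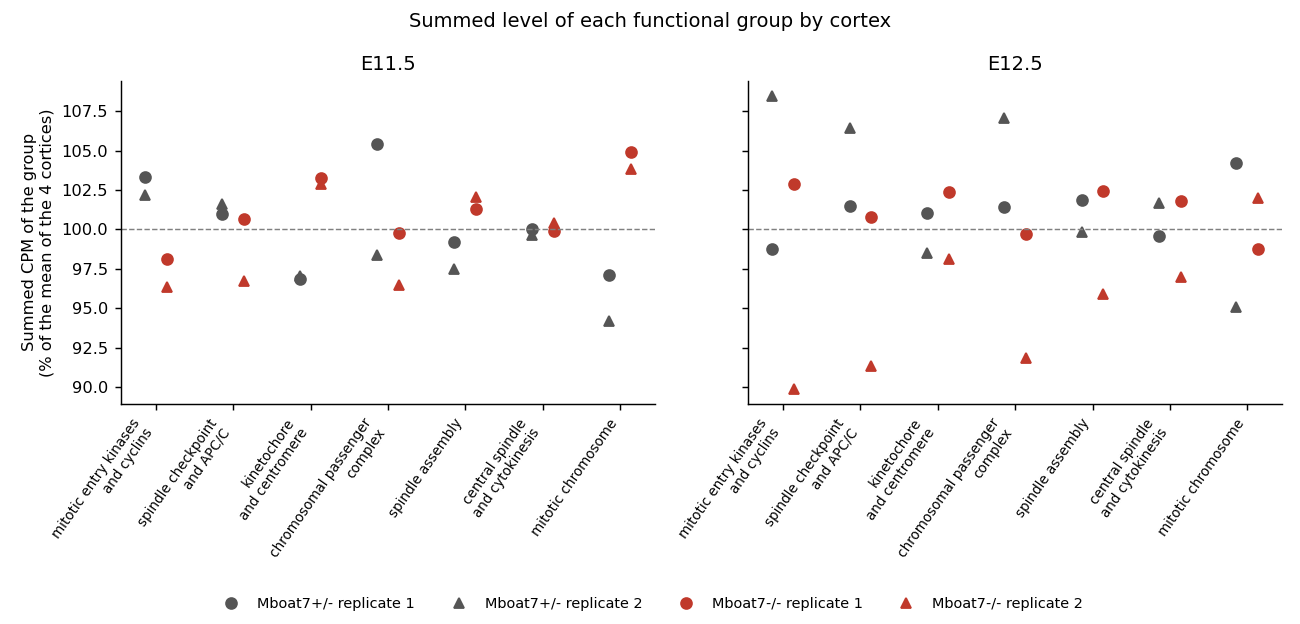
Summed CPM of each functional group in every cortex, as a percent of the mean of the 4 cortices of that stage. Grey is Mboat7+/- and red Mboat7-/-, circles are replicate 1 and triangles replicate 2; at E12.5 the entry, checkpoint and passenger groups are lowest in Mboat7-/- replicate 2 and highest in Mboat7+/- replicate 2.

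Markers of other cell types also differed between the cortices. Erythroid genes were lower in Mboat7-/- cortices for 6 of 6 tested at E11.5 and 9 of 9 at E12.5. Their sum was 6780 and 5119 CPM in the Mboat7+/- cortices and 3536 and 3764 CPM in the Mboat7-/- cortices at E11.5, where Hba-a1 and Hba-a2 were at 0 in all 4. At E12.5 it was 5308 and 7714 CPM and 5402 and 3811 CPM. At that stage, the cortices with the most and the least erythroid RNA were those in which most of the 40 genes were highest and lowest. This was not so at E11.5. There Mboat7-/- replicate 1 had the least erythroid RNA, and 15 of the 40 genes were highest and 11 lowest in it. Mboat7+/- replicate 1 had the most, and 12 genes were highest and 11 lowest in it. Mesenchyme genes were higher for 9 of 10 at E11.5 (1694 and 1658 CPM against 1937 and 2107 CPM) and 7 of 10 at E12.5 (712 and 552 CPM against 689 and 741 CPM). Neuron genes were lower for 10 of 10 at E11.5, at 2208 and 2497 CPM against 1482 and 2318 CPM, and higher for 8 of 10 at E12.5, at 3827 and 3587 CPM against 3722 and 3783 CPM. Intermediate progenitor genes were lower for 8 of 8 at E11.5, at 737 and 775 CPM against 551 and 713 CPM, and higher for 6 of 8 at E12.5. Radial glia genes, which mark the dividing cells of this tissue, were lower for 7 of 10 and 6 of 10. Their E11.5 sums were 4129 and 4185 CPM against 3649 and 4254 CPM, which overlap. At E12.5 the radial glia sums were 3118 and 3369 CPM against 3182 and 2931 CPM. These too were highest in Mboat7+/- replicate 2 and lowest in Mboat7-/- replicate 2. Genes of the dorsal telencephalon, the labelled tissue, were lower for 5 of 5 at E11.5 and higher for 4 of 5 at E12.5, and none was at 0. Their E11.5 sums were 1066 and 1158 CPM against 825 and 1024 CPM. Ventral telencephalon genes were lower for 8 of 9 and 6 of 9, with E11.5 sums of 659 and 616 CPM against 495 and 610 CPM. At E11.5 the sums of the neuron, intermediate progenitor, radial glia, dorsal and ventral lists were each lowest in Mboat7-/- replicate 1. Endothelial genes were higher for 5 of 6 at each stage, and microglial genes for 3 of 6 and 5 of 6. The part of these other cells in the levels of mitosis genes was not tested.

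Among 73 other mitosis genes, none passed the FDR threshold at either stage, with medians of -0.0017 at E11.5 and -0.033 at E12.5. At an unadjusted p under 0.05, 11 were higher and 4 lower at E11.5 (the lower being Ube2s, Fzr1, Ncaph2 and Pmf1), beside 8.03% and 6.07% of all genes. At E12.5, 1 was higher (Sgo2a) and 1 lower (Ube2s), beside 2.85% and 1.38% of all genes. The names of the lower genes were given after their values were seen. The other mitosis genes with the smallest p at E11.5 were Cit, the kinase citron of the midbody, Smc2, a condensin subunit, and Knl1, the kinetochore scaffold. Cit was at 53.3 and 46.9 CPM in the Mboat7+/- cortices and at 70.9 and 70.5 CPM in the Mboat7-/- cortices, with a log2 fold change of 0.50 ± 0.092 (edgeR adjusted p = 0.172). Smc2 was at 132 and 141 CPM and at 184 and 169.5 CPM, with 0.37 ± 0.073, and Knl1 at 29.5 and 26.5 CPM and at 42.2 and 38.3 CPM, with 0.53 ± 0.11 (edgeR adjusted p = 0.174 for both). At E12.5 Sgo2a, a protector of centromeric cohesion, was at 35.7 and 32.6 CPM and at 40.1 and 43.1 CPM, with 0.29 ± 0.11 (edgeR adjusted p = 0.954). Of 30 S-phase genes, 18 were lower at E11.5 (median -0.016) and 29 at E12.5 (median -0.17), with none past the FDR threshold. At E12.5 the S-phase median was -0.065 without Mboat7-/- replicate 2 (25 of 30 lower) and -0.28 without Mboat7-/- replicate 1. At E11.5 its sign turned with the length trend removed (0.025, 13 lower) and without Mboat7-/- replicate 2 (0.034, 12 lower) or Mboat7+/- replicate 1 (0.0047, 14 lower). Tyms, thymidylate synthase, was at 97.2 and 112 CPM and at 95.1 and 77.4 CPM at E12.5, with -0.27 ± 0.12, and Dut, the dUTPase, at 166 and 185 CPM and at 159 and 137 CPM, with -0.25 ± 0.11 (edgeR adjusted p = 0.954 for both). The S-phase sum at E12.5 was also lowest in Mboat7-/- replicate 2, at 3812 CPM, and highest in Mboat7+/- replicate 2, at 4795 CPM.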

How the data were processed

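Poly(A) RNA of 8 cortices was sequenced from directional libraries. The authors deposited raw read counts per gene in 1 table per stage, with 1 column per embryo, without normalization. The submitters' processing notes name HISAT2, Subread, mm10 and GRCm39, with no versions or roles. Gene identifiers at E12.5 were paired with symbols by Ensembl gene name and RefSeq (GRCm38.p6) tables, for 81.4% of genes with a count and 99.0% of counts. Genotypes were compared within a stage by the quasi-likelihood test of edgeR 4.0.16 (R 4.3.3), after TMM scaling and a filterByExpr minimum of 10 counts. P-values were adjusted over all genes by Benjamini-Hochberg, and fold changes used a prior count of 0.125. All 8 cortices were then fitted together on the shared genes, with a stage term for the mean difference and an interaction for its change. CPM used normalized library sizes. Alternatives were RLE and upper-quartile scaling, DESeq2 1.42.0, the earlier quasi-likelihood form, other filters, a replicate block, removal of the trend with union exon length, and leaving out each cortex. On simulated counts, the steps were tested, and their median estimates lay close to the known changes. These changes were larger than any difference of the 40 genes, so detection of smaller ones was not tested. The 40 genes, their functional groups and the comparison lists (other mitosis, S-phase, marker genes) were chosen with earlier results of these data known. Named genes were 20 landmarks of the groups, the 5 with the smallest p at each stage, any called, any with an unadjusted interaction p under 0.05 or without overlap in the same direction at both stages, and from the comparison lists the 3 with the smallest p at each stage. The labels give the replicate number as a batch, and so pair the cortices. The deviations of same-numbered cortices correlated at 0.083 at E11.5 and at -0.20 at E12.5. No pair of cortices agreed within sampling noise (chi-square per degree of freedom at least 4.41). The sources do not say whether the embryos of a genotype came from separate litters, so p-values measure the spread between these embryos. Exon lengths (union of GENCODE exons, GRCm38) were known for 99.2% of the genes tested at E11.5 and 94.9% at E12.5.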

Additional observations from a re-analysis of the deposited data

Results flagged for a closer look

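Bub1b lay above both controls at E11.5 and below both at E12.5, opposite directions in every cortex. The difference between the stages was -0.2466 on the log2 scale (edgeR adjusted p = 0.887), and under 17 alternatives it stayed below 0, from -0.31 to -0.19, with adjusted p from 0.450 to 1. The stages were sequenced by different providers.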

How the results depend on the processing

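At E11.5, 1 member (Cenpe) was called with DESeq2, 1 with the replicate block and 0 to 1 when each cortex was left out (1 without Mboat7-/- replicate 2), and none was called in the other alternatives at E11.5. The block also raised all genes called at E11.5 from 0 to 505, DESeq2 to 178 and leaving out Mboat7-/- replicate 2 to 1184. No member was called at E12.5, over both stages or for the interaction in any alternative, the block included. The block with the E12.5 numbers crossed was added after seeing the data. It called 0 members and 158 genes, against 3 genes without a block and 32 with the uncrossed block. At an unadjusted p under 0.05 it had 1 member higher and 5 lower, beside 1168 of all 16326 genes higher and 899 lower. Leaving out each cortex moved the median of the 40 genes between -0.013 and 0.020 at E11.5 and between -0.119 and 0.004 at E12.5. For the fit over both stages it lay from -0.043 to 0.006 and for the interaction from -0.097 to 0.008. The positive values of the last 3 came without E12.5 Mboat7-/- replicate 2. Among the genes named by the rule, the sign turned with the length trend removed at E11.5 for Plk1 (0.058, with the replicate block 0.059), Cenpf (-0.029 in both), Kif23 (-0.023 in both) and Mki67 (-0.006 and -0.005), and 2 of 6 kinetochore genes were higher. At E12.5 it turned for Cenpf (-0.059 in both), Kif11 (-0.005 and -0.006) and Anln (-0.035 and -0.036). With upper-quartile scaling it turned at E11.5 for Ccnb1 (-0.003) and Tpx2 (-0.005). Leaving out single cortices turned the sign at E11.5 for Ccnb1 (-0.044 to 0.079), Plk1 (-0.086 to 0.055), Ttk (-0.118 to 0.069), Ndc80 (-0.029 to 0.189), Tpx2 (-0.006 to 0.039) and Prc1 (-0.148 to 0.039). At E12.5 it did so for Plk1 (-0.237 to 0.046), Bub1 (-0.096 to 0.027), Cdc20 (-0.160 to 0.023), Ttk (-0.135 to 0.120), Cenpf (-0.047 to 0.093), Aurkb (-0.128 to 0.019), Birc5 (-0.220 to 0.009), Kif11 (-0.027 to 0.078), Anln (-0.022 to 0.040), Top2a (-0.115 to 0.012), Mki67 (-0.054 to 0.258) and Kif20b (-0.098 to 0.284). Without a turn of sign, the E12.5 value also moved for Aurka (-0.252 to -0.014), Cdk1 (-0.256 to -0.051) and Ube2c (-0.276 to -0.081). Such moves were also seen for Ccnb1 (-0.251 to -0.04), Bub1b (-0.232 to -0.092), Cdca8 (-0.314 to -0.127) and Tpx2 (-0.18 to -0.006). The same held for Prc1 (-0.189 to -0.019), Kif20a (-0.127 to -0.022), Kif23 (0.077 to 0.308), Ndc80 (0.123 to 0.24) and Cenpe (0.001 to 0.322). Of the other members, Ccnb2, Cenpa, Nuf2, Kif2c and Kif4 at E11.5 and Ccnb2, Ccna2, Cdc25b, Cdc25c, Cenpa, Nuf2, Spc25, Nusap1, Kif4, Kif14, Racgap1 and Ect2 at E12.5 turned in at least 1 alternative. A genotype left with 1 cortex was assumed to vary like the other. The cause of these turns was not tested. Counts of members without overlap stayed within 1.5 times of those given under every scaling, filter and length setting. The standard errors of the 40 genes had medians of 0.072 at E11.5 and 0.100 at E12.5, which sets the precision of 2 cortices per genotype.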
